A study of Mus musculus with 18 samples.

Results

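Complex I (NADH:ubiquinone oxidoreductase), the first enzyme of the mitochondrial respiratory chain, was followed through its genes in mouse colon organoids. All protein-coding genes of the deposited table whose names begin with Nduf or mt-Nd were taken, which gave 55 of 56748 genes. They comprise 37 nuclear genes for subunits, 8 Ndufaf genes for assembly factors, 7 mitochondrially encoded subunits and 3 genes kept apart (Ndufa4, Ndufa4l2 and Ndufb11b). Organoids, which are epithelial cultures grown here from the proximal, mid or distal colon, were kept in a proliferative control medium (ENR + Wnt3a CM) or in a differentiation medium, applied 3 days after passaging. Each of the 6 groups, proximal control, proximal differentiation, mid control, mid differentiation, distal control and distal differentiation, has 3 libraries of poly-A RNA. Strain, genotype and age of the mice, the composition of the differentiation medium and whether replicates were separate animals or cultures are not given in the sources used here, so p-values measure only the spread between these libraries, which may be technical.

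Complex I takes electrons from NADH, passes them along iron-sulfur clusters in its matrix arm to ubiquinone, and pumps protons through its membrane arm. Its core of catalytic and proton-pumping subunits is encoded partly in the nucleus and partly in mitochondrial DNA, and a shell of accessory subunits, all nuclear, surrounds it. Assembly factors build the arms in modules and are not part of the finished enzyme. In the colon, colonocytes near the surface are known for oxidising the short-chain fatty acid butyrate in their mitochondria, while dividing crypt cells rely more on glycolysis.

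Recovered depth was 12827751 to 19938198 reads per library, and genes were compared as log2(FPKM + 1), where FPKM is the fragment count divided by gene length and by library size. Each difference is given on that log2 scale with its standard error (SE) from limma, and a gene is called higher or lower where the Benjamini-Hochberg adjusted p over 12896 tested genes is under 0.05. The reads of a library sum to 0.831 to 1.32 times the library size behind its FPKM, higher in differentiation medium, so counts are also given with a second scaling, to the summed reads. That scaling moved the median of all genes to -0.25, -0.33 and -0.34 in the proximal, mid and distal medium comparisons, to -0.10 between regions in differentiation medium and to -0.11 in the difference between regional responses. Epithelial markers summed to 3206 FPKM or more in each library, whereas fibroblast, immune, endothelial and muscle or neural markers each summed to at most 0.663 FPKM. In differentiation medium the 4 crypt markers summed to 1.15 to 8.27 FPKM against 59.0 to 72.1 in control medium, and the 5 surface colonocyte markers to 12965 to 23179 against 282 to 2147. Car1 was the largest part of that sum in differentiation medium (means of 18982, 13418 and 12775 FPKM in proximal, mid and distal organoids). Aqp8 had means of 0.40, 3078 and 4090 FPKM in these groups and Car4 0.99, 347 and 235. Slc26a3 had 31.3, 536 and 555 FPKM, and Krt20 696, 758 and 656. The 5 cycling markers summed to 32.001 to 155 FPKM in control and 3.14 to 14.5 in mid and distal differentiation libraries, whereas proximal differentiation replicate 1 reached 57.7, so proximal medium counts are also given without that library. The part of these shifts in cell type in the results that follow was not tested, and in bulk RNA fewer cells of a type and less RNA per cell cannot be told apart.

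The 7 mitochondrially encoded subunits form the membrane arm's core. In differentiation medium 6 of 7 were called higher in mid organoids and 6 of 7 in distal organoids, with mt-Nd3 the exception in both, against 31.5% and 31.6% of all tested genes called higher. In proximal organoids 1 of 7, mt-Nd2, was called higher, against 27.6% of all tested genes. Median differences over the 7 were 0.31 in proximal, 1.43 in mid and 1.22 in distal organoids, beside -0.01, 0 and 0.0030 over all tested genes. Scaled to summed reads, 5 of 7 were called higher in mid and 5 of 7 in distal organoids, mt-Nd4l no longer among them, and none of 7 in proximal organoids, where mt-Nd3 was called lower (-0.93). That scaling called 19.2% and 18.6% of all genes higher in mid and distal organoids. In proximal organoids it called 18.5% higher and 40.1% lower. Without proximal differentiation replicate 1 the proximal count was 1 of 7.

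The gene mt-Nd4 (ENSMUSG00000064363, chrMT:10167-11544 on mm39), an antiporter-like subunit of the proton-pumping arm, stood at 507, 640.3 and 699 FPKM in proximal control libraries and 728, 665 and 902 in proximal differentiation libraries. It was 654, 783 and 716 FPKM in mid control against 2312, 2147 and 2079.5 in mid differentiation libraries, and 899, 745 and 615 in distal control against 2169.7, 2517 and 1742 in distal differentiation libraries. Mid and distal differentiation libraries all lay above every other library, and the proximal groups overlapped. The difference was 1.604 ± 0.19 (adjusted p = 3.72e-06) in mid and 1.51 ± 0.19 (adjusted p = 7.27e-06) in distal organoids, and 0.31 ± 0.19 (adjusted p = 0.164) in proximal organoids. Its antiporter-like relative mt-Nd5 (chrMT:11742-13565) differed by 1.499 ± 0.21 (adjusted p = 1.80e-05) in mid and 1.52 ± 0.21 (adjusted p = 1.76e-05) in distal organoids, with group means rising from 733 ± 58.4 to 2072 ± 80.6 FPKM in mid and from 769 ± 210.4 to 2183 ± 424 in distal (SD, n = 3). In proximal organoids the mt-Nd5 means were 622 ± 90.3 and 801 ± 139 FPKM (SD, n = 3), a difference that was not called.

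The third antiporter-like subunit, mt-Nd2 (chrMT:3914-4951), had the highest group means of the 3 in FPKM, which is per length, and was the only mt-Nd gene called higher in each region. Its level was 682, 812 and 818 FPKM in proximal control and 1139, 1192 and 1344 in proximal differentiation libraries, 915, 1027 and 892 and 2447, 2331 and 2214 in mid, and 1065, 1054 and 847 and 2229, 2616 and 2055 in distal libraries. All differentiation libraries of a region lay above its control libraries. The differences were 0.67 ± 0.15 (adjusted p = 0.00143), 1.303 ± 0.15 (adjusted p = 2.93e-06) and 1.22 ± 0.15 (adjusted p = 6.11e-06) in proximal, mid and distal organoids. The proximal call was lost on summed reads (0.35) and with no filter on low genes (adjusted p = 0.0623). The subunit mt-Nd1 (chrMT:2751-3707), which lies at the ubiquinone entry, rose by 0.998 ± 0.17 (adjusted p = 1.44e-04) in mid and 0.90 ± 0.17 (adjusted p = 3.63e-04) in distal organoids, with means of 2489.9 ± 227 and 4969 ± 380.3 FPKM in mid (SD, n = 3). Both calls were lost with no filter (adjusted p = 0.141 and 0.196).

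The small membrane subunit mt-Nd3 (chrMT:9459-9806) had a different pattern. It stood at 78.2, 51.99 and 46.7 FPKM in proximal control and 43.8, 33.7 and 34.98 in proximal differentiation libraries, at 52.7, 56.2 and 34.1 and 69.9, 65.04 and 69.7 in mid, and at 54.6, 103 and 40.7 and 81.1, 104 and 40.5 in distal libraries. The proximal differentiation libraries lay below the proximal control libraries, the mid ones above theirs, and the distal groups overlapped. None of the 3 differences was called (-0.61 ± 0.34, 0.54 ± 0.34 and 0.19 ± 0.34). Its neighbour mt-Nd4l (chrMT:9877-10173), which overlaps the start of mt-Nd4, differed by 1.43 ± 0.50 (adjusted p = 0.0218) in mid and 1.205 ± 0.50 (adjusted p = 0.0485) in distal organoids. Both calls were lost in several fits without 1 library, with an adjusted p of up to 0.109 in mid (without mid control replicate 3, with mid control replicate 2, mid differentiation replicate 1 and mid differentiation replicate 3 also ending the call) and up to 0.263 in distal (without distal differentiation replicate 2, with distal control replicates 1 and 2 and distal differentiation replicate 1 also ending it). The gene mt-Nd6 (chrMT:13552-14070) lies on the opposite strand and overlaps mt-Nd5, whose messenger is known to run on antisense to mt-Nd6. Its FPKM was 0.688 to 0.867 of that of mt-Nd5 in each library, and its differences, 1.54 ± 0.24 (adjusted p = 4.57e-05) in mid and 1.63 ± 0.24 (adjusted p = 3.04e-05) in distal organoids, were close in size to those of mt-Nd5. The sources used here do not say whether the counting used strand, so reads of mt-Nd6 and antisense reads cannot be told apart.

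**Figure D1:**
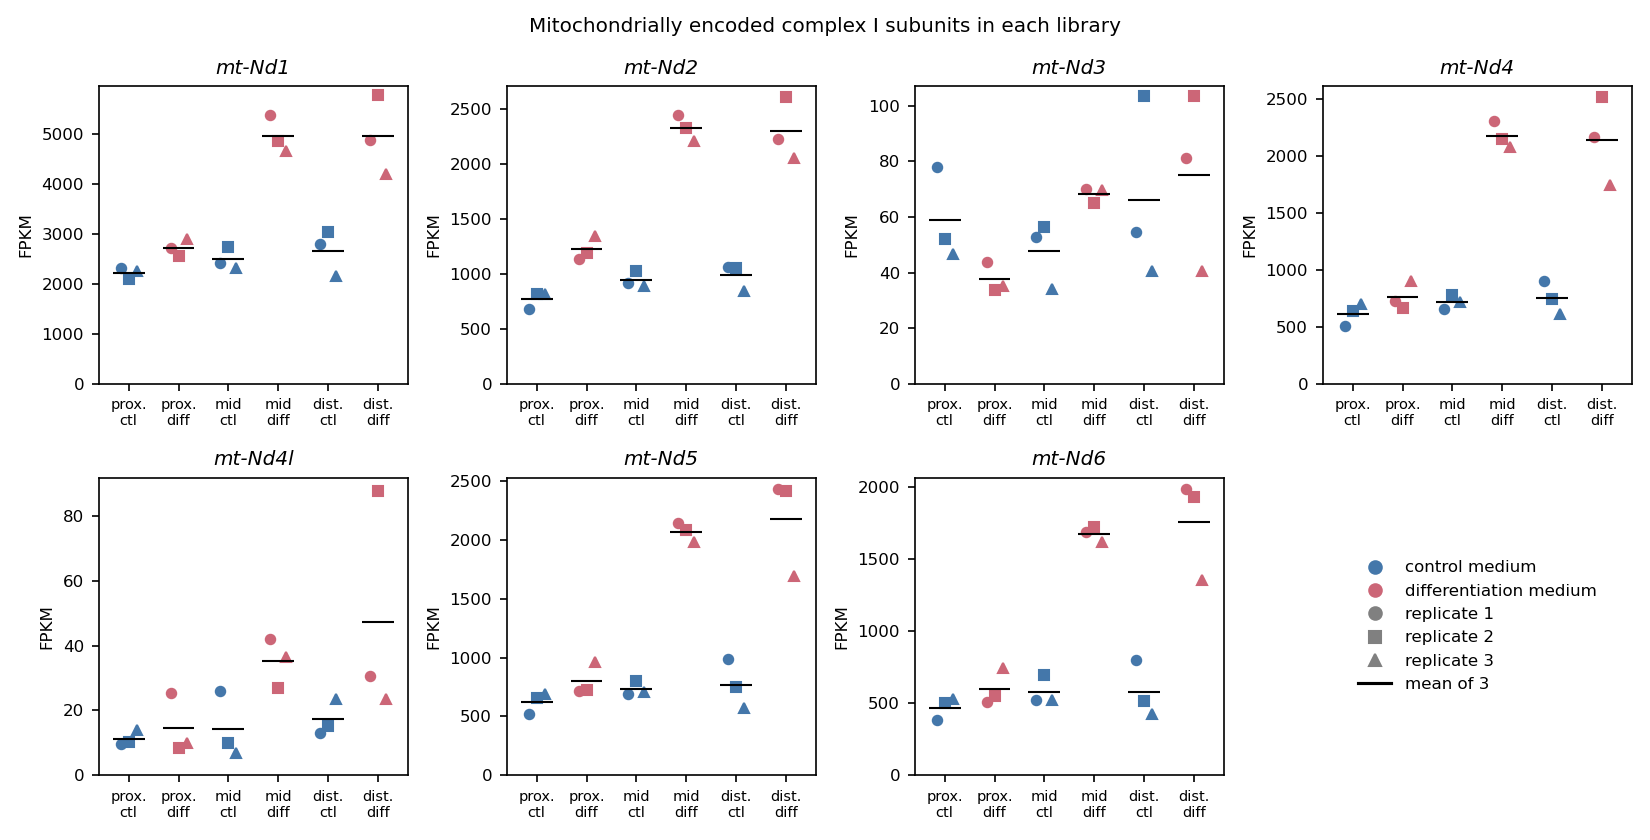
FPKM of the 7 mitochondrially encoded subunits (vertical axis, linear from 0) in the 18 libraries, by group along the horizontal axis; symbols stand for replicates 1 to 3 and the line for the mean of 3. For mt-Nd4 the mid and distal differentiation libraries lie above every other library, while the proximal groups overlap.

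Ratios within a library do not depend on how libraries are scaled. Reads of the 7 mt-Nd genes over reads of the 37 nuclear subunits were 2.72, 3.07 and 3.19 in mid control and 4.67, 5.09 and 5.28 in mid differentiation libraries, without overlap. In distal libraries the ratio was 3.82, 3.18 and 3.08 in control and 3.78, 5.27 and 4.86 in differentiation medium, where distal differentiation replicate 1 lay just below distal control replicate 1. In proximal libraries it was 2.83, 3.38 and 3.82 and 2.803, 2.796 and 3.44, and the groups overlapped. The mt-Nd genes took 0.668, 0.759 and 0.654% of reads in mid control, 1.34, 1.302 and 1.17% in mid differentiation, 0.846, 0.806 and 0.581% in distal control and 1.17, 1.52 and 1.15% in distal differentiation libraries. The share was 0.569, 0.608 and 0.639% in proximal control and 0.665, 0.543 and 0.682% in proximal differentiation libraries.

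The FPKM of mt-Nd4 over that of mt-Nd1, a pair chosen because their differences were unequal and given as a description, was 0.2703, 0.285 and 0.3103 in mid control and 0.429, 0.442 and 0.447 in mid differentiation libraries. It was 0.322, 0.246 and 0.284 in distal control and 0.444, 0.435 and 0.415 in distal differentiation libraries. The mid and distal differentiation libraries lay above all others, whereas the proximal libraries, 0.219, 0.306 and 0.3100 in control and 0.268, 0.2597 and 0.311 in differentiation medium, overlapped.

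**Figure D2:**
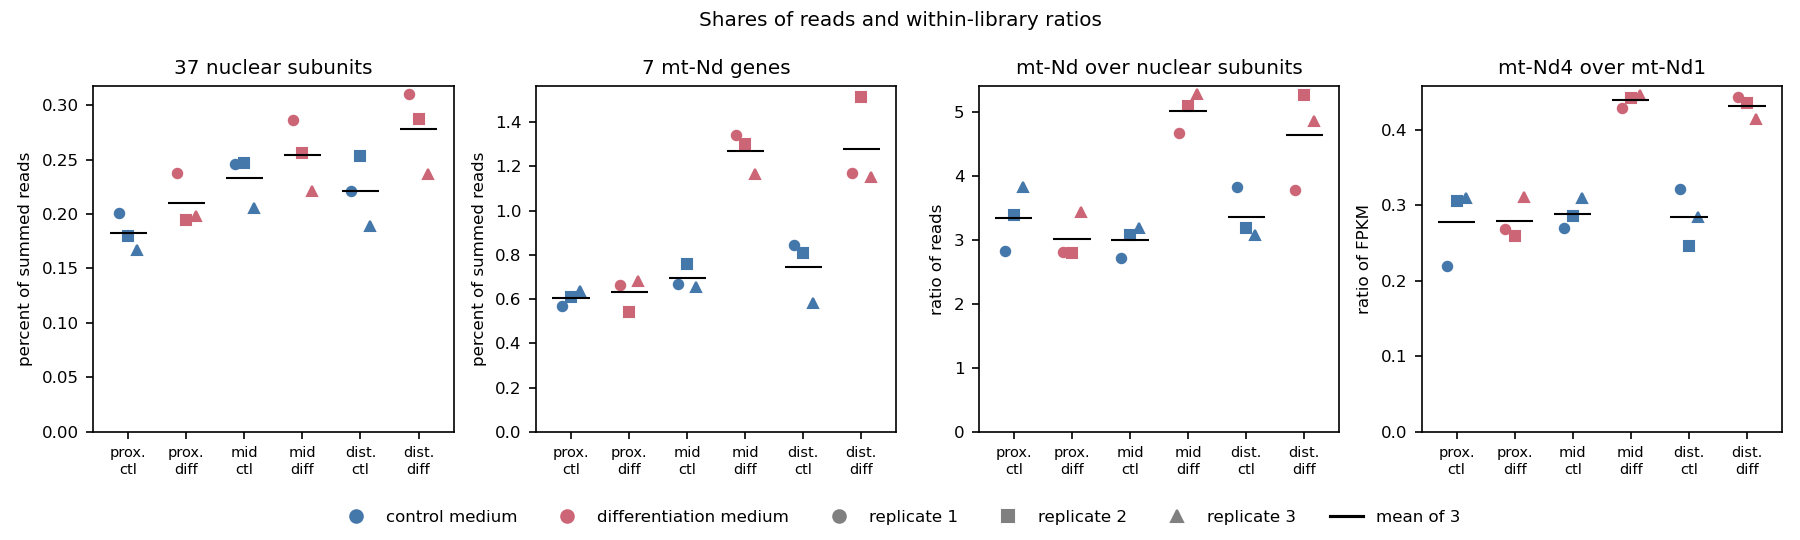
Percent of summed reads in the 37 nuclear subunits and in the 7 mt-Nd genes, the ratio of those reads, and the FPKM ratio of mt-Nd4 to mt-Nd1 (vertical axes, linear from 0) in each library by group. The mt-Nd share lies above 1% in each mid and distal differentiation library and below 1% in the other libraries, and the mt-Nd4 to mt-Nd1 ratio is 0.415 or more only in those 6 libraries.

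Of the 37 nuclear subunits, 36 reached 1 FPKM in 3 or more libraries and were tested. In differentiation medium 22 of 36 were called higher in proximal, 23 in mid and 30 in distal organoids and none lower. This compares with 27.6%, 31.5% and 31.6% of all tested genes called higher and 26.2%, 32.0% and 31.3% called lower. Median differences were 0.43, 0.46 and 0.71, and 18 of 36 were called higher in each of the 3 regions. The share of all genes called higher in all 3 was not computed, so the count of 18 describes the members only. All 3 differentiation libraries lay above all 3 control libraries for 31 of 36 subunits in proximal, 24 in mid and 30 in distal organoids, against 30.6%, 36.5% and 31.9% of all tested genes. Scaled to summed reads the counts fell to 6, 8 and 14 called higher, beside 18.5%, 19.2% and 18.6% of all genes, with 0.13, 0.05 and 0.27 as medians and 1 subunit, Ndufs8, called lower in mid organoids (-0.52). On that scaling 40.1%, 46.6% and 47.3% of all genes were called lower. The proximal count was 15 without proximal differentiation replicate 1, 13 without proximal control replicate 2 and 11 without proximal control replicate 3, and the mid count was 15 without mid control replicate 3 and 13 without mid differentiation replicate 1.

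The matrix arm's NADH-oxidising module has 3 core subunits. Ndufv1, which binds NADH and FMN, differed by 0.44 ± 0.18 in proximal, where it was not called, 0.47 ± 0.18 in mid and 0.78 ± 0.18 in distal organoids. Ndufv2, an iron-sulfur protein beside it, stood at 39.6, 41.6 and 29.3 FPKM in distal control and 99.9, 79.3 and 56.8 in distal differentiation libraries, which did not overlap, and rose by 0.56 ± 0.18, 0.75 ± 0.18 and 1.05 ± 0.18 (adjusted p = 1.50e-04) in the 3 regions. Ndufs1, which carries several of the clusters, rose by 0.47 ± 0.15, 0.61 ± 0.15 and 0.72 ± 0.15 (adjusted p = 6.00e-04). In proximal organoids Ndufv2 was no longer called without proximal control replicate 3 (adjusted p = 0.05997) or proximal differentiation replicate 3 (adjusted p = 0.05297), and neither was Ndufs1 once proximal control replicate 3 was left out (adjusted p = 0.0624). In mid organoids the call of Ndufv1 was lost without mid control replicate 1 or 3 or mid differentiation replicate 1 or 2 (adjusted p of 0.06202 to 0.133). On summed reads, of the 3 only Ndufv2 was called, in distal organoids (0.60).

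Core subunits of the ubiquinone-reducing module did not share a response. Ndufs7, which holds the last cluster before ubiquinone, was 29.7, 26.4 and 23.3 FPKM in proximal control and 41.6, 45.95 and 39.03 in proximal differentiation libraries, and 30.1, 30.6 and 24.3 and 80.5, 50.8 and 41.2 in distal libraries. Neither pair of groups overlapped. Its differences were 0.66 ± 0.19 (adjusted p = 0.00933), 0.62 ± 0.19 (adjusted p = 0.0106) and 0.95 ± 0.19 (adjusted p = 5.24e-04) in proximal, mid and distal organoids. Ndufs8, which carries iron-sulfur clusters in the same module, was 38.96, 33.9 and 32.6 FPKM in proximal control, 43.2, 24.1 and 29.6 in proximal differentiation, 42.9, 45.8 and 33.4 in distal control and 53.9, 42.7 and 38.8 in distal differentiation libraries, and the groups overlapped in both regions. It was not called in any region (-0.16 ± 0.19, -0.09 ± 0.19 and 0.15 ± 0.19). Ndufs3, which sits between the NADH module and the membrane arm, was called higher in each region (0.41 ± 0.15, 0.47 ± 0.15 and 0.71 ± 0.15). The proximal call of Ndufs3 was lost without proximal control replicate 2 or 3 or proximal differentiation replicate 1 or 3 (adjusted p of 0.0629 to 0.0944), and its mid call without mid differentiation replicate 1 (adjusted p = 0.0626).

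Accessory subunits of the membrane arm were called higher in 13 of 19 cases in proximal, 12 of 19 in mid and 17 of 19 in distal organoids, with medians of 0.45, 0.46 and 0.80. Those of the matrix arm were called higher in 5 of 9, 5 of 9 and 7 of 9 cases, with medians of 0.41, 0.34 and 0.55. Of all tested genes 27.6%, 31.5% and 31.6% were called higher. On summed reads the counts fell to 4, 6 and 9 of 19 for the membrane arm and 2, 2 and 3 of 9 for the matrix arm. That scaling called 18.5%, 19.2% and 18.6% of all genes higher. Both proximal counts and the mid matrix-arm count lie near that background. Without proximal differentiation replicate 1 the proximal counts were 9 of 19 and 3 of 9. The accessory subunits with the largest differences came from both arms, and the one with the largest in each region was Ndufa6 (ENSMUSG00000022450, chr15:82234341-82238523, minus strand), a matrix-arm protein that binds the acyl carrier protein Ndufab1. Ndufa6 stood at 35.6, 29.9 and 27.2 FPKM in proximal control and 61.6, 97.6 and 83.1 in proximal differentiation libraries. It was 36.6, 36.2 and 30.5 and 125, 91.5 and 106 FPKM in mid, and 44.2, 47.95 and 25.96 and 195, 115 and 86.5 in distal libraries. Differentiation libraries lay above control libraries in each region, and proximal differentiation replicate 1 was the lowest of them. The differences were 1.34 ± 0.27 (adjusted p = 7.78e-04), 1.61 ± 0.27 (adjusted p = 1.11e-04) and 1.69 ± 0.27 (adjusted p = 7.80e-05), and remained called on summed reads (1.03, 1.18 and 1.24).

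Ndufb9 (chr15:58805605-58811337, plus strand), which also binds Ndufab1 but at the far end of the membrane arm, rose by 0.89 ± 0.19 (adjusted p = 0.00104), 1.07 ± 0.19 (adjusted p = 1.50e-04) and 1.34 ± 0.19 (adjusted p = 2.23e-05). Its distal libraries held 30.00, 32.2 and 24.4 FPKM in control and 97.3, 74.99 and 56.3 in differentiation medium, without overlap. Ndufb10, a membrane-arm subunit facing the intermembrane space, rose by 1.02 ± 0.16, 0.88 ± 0.16 and 1.19 ± 0.16 (adjusted p = 2.17e-05), from 43.3 ± 5.27 to 102 ± 28.1 FPKM in distal organoids (SD, n = 3). Ndufv3, an accessory of the NADH module, rose by 1.03 ± 0.16, 0.87 ± 0.16 and 1.08 ± 0.16 (adjusted p = 3.78e-05). Ndufa11, a membrane-arm subunit at the contact with complex III, rose by 0.79 ± 0.12, 1.11 ± 0.12 and 1.15 ± 0.12 (adjusted p = 1.24e-06). All of the Ndufb9, Ndufb10, Ndufv3 and Ndufa11 calls held on summed reads and in each fit without 1 library. The span of Ndufb9 overlaps the coding gene Gm49356 on the same strand over 3604 bases, so its values are uncertain. The small X-linked subunit Ndufa1 was not called in proximal organoids (0.55 ± 0.23) and rose by 1.15 ± 0.23 (adjusted p = 4.53e-04) in mid and 1.33 ± 0.23 (adjusted p = 1.43e-04) in distal organoids.

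At the other end, Ndufab1, the mitochondrial acyl carrier protein that also serves fatty acid and iron-sulfur synthesis, was not called in any region (0.10 ± 0.15, 0.15 ± 0.15 and 0.25 ± 0.15), although both of its binding partners above were. Its libraries ranged from 5.001 to 9.64 FPKM. Ndufs6, a zinc-binding matrix-arm subunit, differed by 0.26 ± 0.13, 0.11 ± 0.13 and 0.26 ± 0.13 and was not called. Ndufa12, an accessory subunit of the matrix arm, was not called either (-0.10 ± 0.50, -0.14 ± 0.50 and 0.64 ± 0.50), and its libraries scattered from 6.75 to 33.1 FPKM. Ndufa12, Ndufab1 and Ndufs6 each have a copy listed as a gene of its own in the table (Ndufa12-ps, Ndufab1-ps and Ndufs6b), as do Ndufs5 and Ndufb4 (Ndufs5-ps and Ndufb4c), and the sources used here do not say how reads shared with a copy were counted, so their values are uncertain. The FPKM of Ndufa6 over that of Ndufs8, the subunits at either end of the range of differences and so chosen by their values, was 0.913, 0.882 and 0.835 in proximal control and 1.43, 4.05 and 2.81 in proximal differentiation libraries, 0.862, 0.814 and 0.753 and 2.801, 2.21 and 3.13 in mid, and 1.03, 1.05 and 0.778 and 3.62, 2.69 and 2.23 in distal libraries. The differentiation libraries had the higher ratio in each region, a direction that the choice of the pair fixes.

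**Figure D3:**
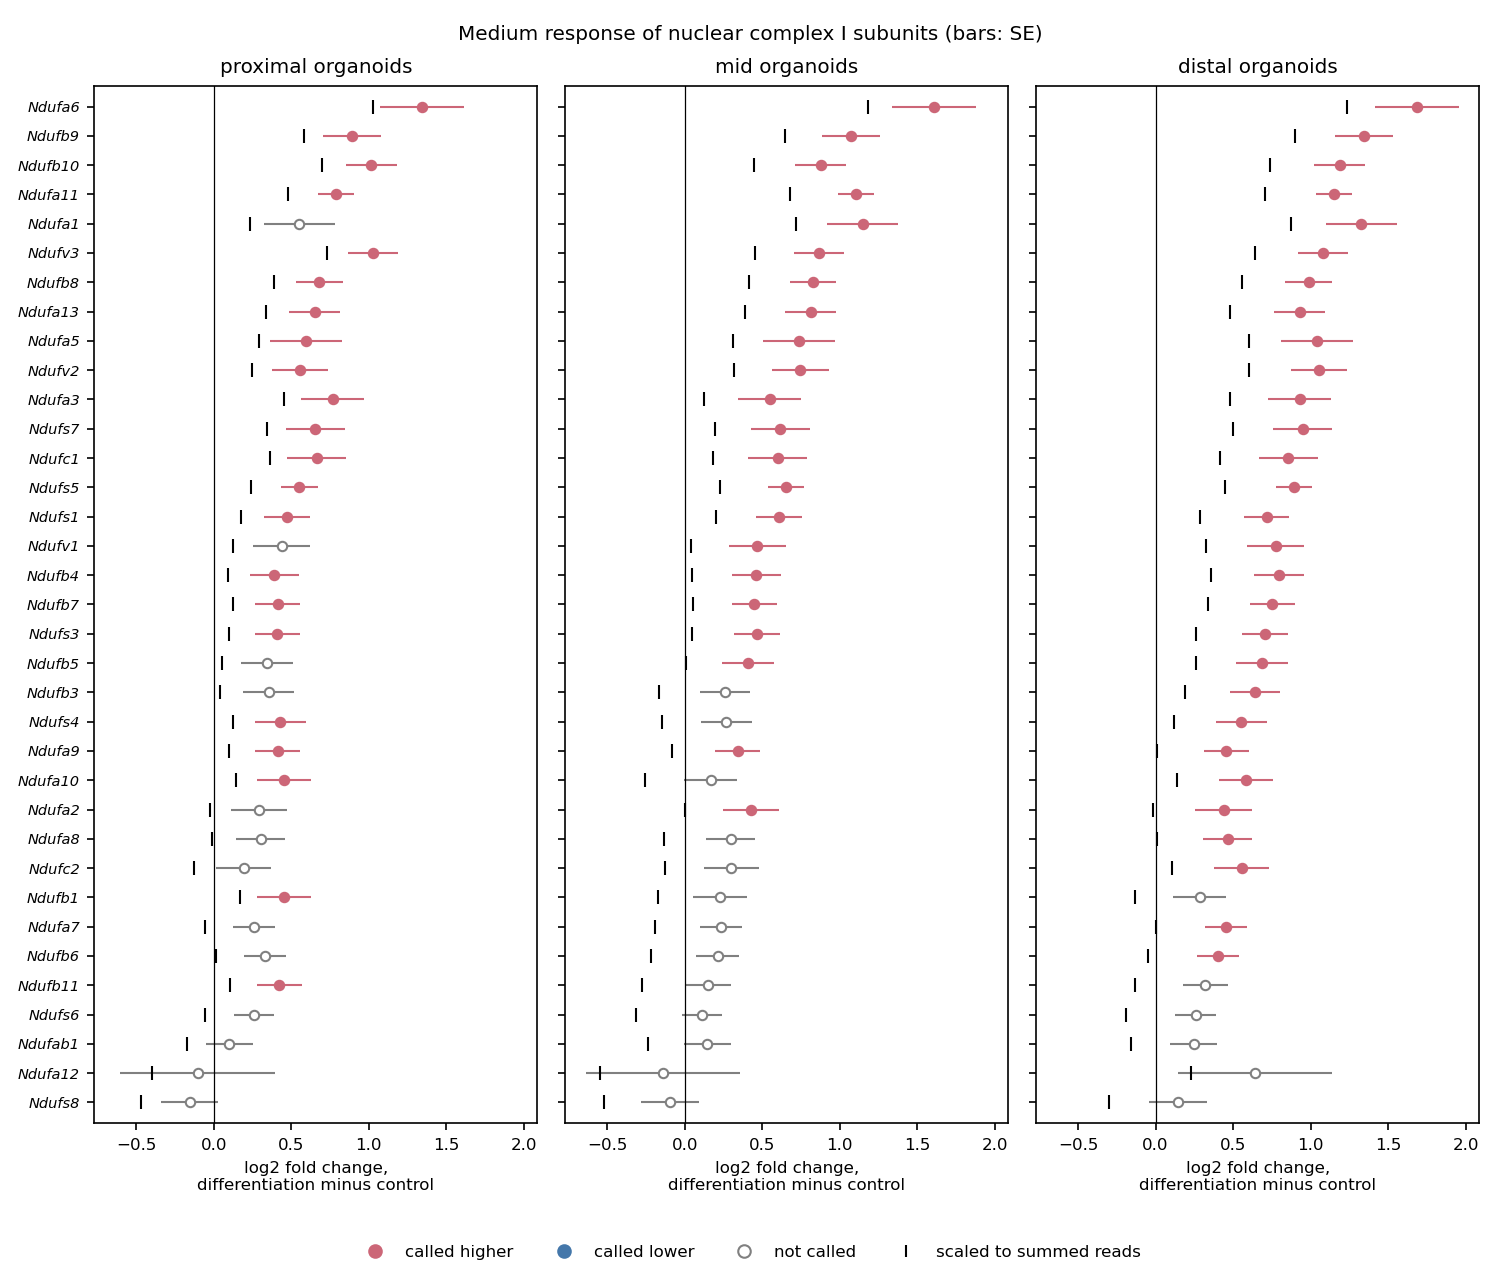
Difference between differentiation and control medium in log2(FPKM + 1) (horizontal axis) for tested nuclear subunits, 1 of the 36 left out (vertical axis, ordered by their mean difference) in proximal, mid and distal organoids; circles with SE bars are filled where called and the tick is the value scaled to summed reads. Ndufa6 lies at the top and Ndufs8 at the bottom, and on summed reads the ticks shift left for all subunits shown.

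Promoter letters were looked at because nuclear respiratory factor 1 (NRF1), GABP and the estrogen-related receptors are known regulators of nuclear genes for respiration, and the members differed in response. Promoters came from RefSeq on GRCm38.p6, 250 bases before to 50 bases after the start, and 33 of the 37 nuclear subunits matched by symbol. The NRF1 motif, GCGC and TGCGC separated by 1 free base and searched on both strands, was found for 7 of 33 nuclear subunits (21.2%) and for 5.19% of 27025 genes with a promoter in the table. One match for each of the 7 genes is shown, with the motif in capitals, read along the gene's strand, so that a match on the opposite strand appears as its reverse complement.
Ndufa6 chr15:82354249-82354278 (minus strand): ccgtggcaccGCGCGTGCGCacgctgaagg
Ndufa11 chr17:56717692-56717721 (plus strand): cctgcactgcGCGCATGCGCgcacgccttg
Ndufa5 chr6:24527697-24527726 (minus strand): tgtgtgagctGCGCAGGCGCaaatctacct
Ndufs5 chr4:123718265-123718294 (minus strand): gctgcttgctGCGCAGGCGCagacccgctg
Ndufb4 chr16:37654371-37654400 (minus strand): cctcatatccGCGCAGGCGCagatgtgcgc
Ndufa8 chr2:36049349-36049378 (minus strand): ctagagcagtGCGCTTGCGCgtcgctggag
Ndufs6 chr13:73328479-73328508 (minus strand): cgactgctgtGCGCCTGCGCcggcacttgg
The distal medium differences of these 7 genes ran from 1.69 ± 0.27 for Ndufa6 to 0.26 ± 0.13 for Ndufs6, with 1.15 ± 0.12 for Ndufa11, 1.04 ± 0.23 for Ndufa5, 0.89 ± 0.12 for Ndufs5, 0.80 ± 0.16 for Ndufb4 and 0.46 ± 0.16 for Ndufa8, so genes with the same letters lay at both ends of the range. The estrogen-related receptor motif AAGGTCA was found for 3 of 33 nuclear subunits (9.09%, against 5.38% of genes), 2 of which were tested, and is shown for those in capitals.
Ndufb4 chr16:37654407-37654433 (minus strand): cctgagcctgAAGGTCAgactcgagag
Ndufs5 chr4:123718398-123718424 (minus strand): ttctcgagtgTGACCTTgctcaagtag
The GABP motif CCGGAAG was found for 4 of 33 (12.1%, against 9.93% of genes). It stood at Ndufs8, which was not called in any region, and at Ndufs3, which was called in each, and is shown for that contrast.
Ndufs8 chr19:3912743-3912769 (minus strand): taggctccgcCTTCCGGttgaaccgca
Ndufs3 chr2:90904732-90904758 (minus strand): ccgcgtccgcCCGGAAGaagagtcact
The 3 motifs do not share letters in these matches, and a match describes the letters only.

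In differentiation medium the calls among the 8 Ndufaf assembly factors went both ways. Proximal organoids had 1 of 8 called higher and 2 lower, and mid and distal organoids 2 higher and 3 lower each, with medians of -0.22, -0.34 and -0.24. Of all tested genes 27.6%, 31.5% and 31.6% were called higher and 26.2%, 32.0% and 31.3% lower, so the counts of the 8 lie near the background. Without proximal differentiation replicate 1 the proximal counts were 1 higher and 3 lower. Scaled to summed reads the counts were 1 higher and 3 lower, 0 and 5, and 1 and 5. That scaling called 18.5%, 19.2% and 18.6% of all genes higher and 40.1%, 46.6% and 47.3% lower. With no filter, 1 rather than 2 was called higher in mid organoids.

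Ndufaf4 (ENSMUSG00000028261, chr4:24898083-24905001, plus strand), which works with Ndufaf3 at an early step of building the ubiquinone module, was lower in each region. It stood at 8.92, 8.12 and 8.01 FPKM in proximal control and 5.56, 1.86 and 2.98 in proximal differentiation libraries, 9.89, 9.56 and 8.402 and 4.37, 5.16 and 4.23 in mid, and 10.1, 13.9 and 8.801 and 4.86, 6.801 and 5.49 in distal libraries. All differentiation libraries lay below the control libraries of their region, and the differences were -1.15 ± 0.23 (adjusted p = 6.53e-04), -0.88 ± 0.23 (adjusted p = 0.00322) and -0.82 ± 0.23 (adjusted p = 0.005396). Ndufaf8 (ENSMUSG00000078572, chr11:119989754-119991531, plus strand), the partner of Ndufaf5, was higher in each region. Its levels were 11.6, 9.99 and 10.5 FPKM in proximal control and 14.4, 22.7 and 19.1 in proximal differentiation libraries, 11.8, 13.2 and 11.3 and 27.4, 16.6 and 18.6 in mid, and 10.8, 10.2 and 10.3 and 26.3, 21.4 and 17.96 in distal libraries. Differentiation libraries lay above controls in each region, and the differences were 0.74 ± 0.18 (adjusted p = 0.00303), 0.71 ± 0.18 (adjusted p = 0.00283) and 0.99 ± 0.18 (adjusted p = 2.25e-04), though the mid one was not called on summed reads (0.30). The FPKM of Ndufaf8 over that of Ndufaf4, a pair set together because they moved in opposite directions, was 1.297, 1.23 and 1.31 in proximal control and 2.59, 12.2 and 6.405 in proximal differentiation libraries, the lowest of the latter being replicate 1. It was 1.06, 0.734 and 1.17 in distal control and 5.42, 3.14 and 3.27 in distal differentiation libraries.

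Ndufaf3, the partner of Ndufaf4, was called higher in mid (0.40 ± 0.15) and distal organoids (0.62 ± 0.15) and not in proximal ones (0.07 ± 0.15), so the pair was called in opposite directions there, and neither Ndufaf3 call held on summed reads (0.01 and 0.21). Ndufaf1, a chaperone of the membrane arm, was lower in mid (-0.49 ± 0.14) and distal organoids (-0.60 ± 0.14), as was Ndufaf6 (-0.69 ± 0.20 and -0.63 ± 0.20). Ndufaf7, a mitochondrial methyltransferase, was lower in proximal organoids (-0.67 ± 0.18) and not called in the others (0.01 ± 0.18 and -0.25 ± 0.18). The mid call of Ndufaf3 was lost without any 1 of the 6 mid libraries (adjusted p of 0.0505 to 0.0992). The distal call of Ndufaf6 was lost without distal control replicate 1 or distal differentiation replicate 2 or 3 (adjusted p of 0.0542 to 0.0648). Ndufaf2 and Ndufaf5 were not called in any region. Among 11 tested assembly genes outside the Nduf names, of 12 listed (Coa1 did not match a name), the calls were 1 higher against 3 lower for proximal organoids, 3 against 5 for mid and 2 against 4 for distal ones. These lie near or below the shares of all genes called on FPKM, given above. On summed reads the counts were 1 against 7, 1 against 8 and 1 against 7, where 40.1%, 46.6% and 47.3% of all genes were called lower. Without proximal differentiation replicate 1 the proximal counts were 2 against 5. Of them Tmem126b, which joins Ndufaf1 in a membrane-arm assembly complex, was higher in each region (0.66 ± 0.12, 0.87 ± 0.12 and 0.94 ± 0.12). Tmem70 (-0.75 ± 0.13, -0.66 ± 0.13 and -0.70 ± 0.13) and Dmac1 (-0.41 ± 0.13, -0.90 ± 0.13 and -0.84 ± 0.13), both needed for the membrane arm, were lower in each. The proximal Dmac1 call was lost without proximal control replicate 3 or proximal differentiation replicate 2 (adjusted p of 0.0622 to 0.0949).

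**Figure D4:**
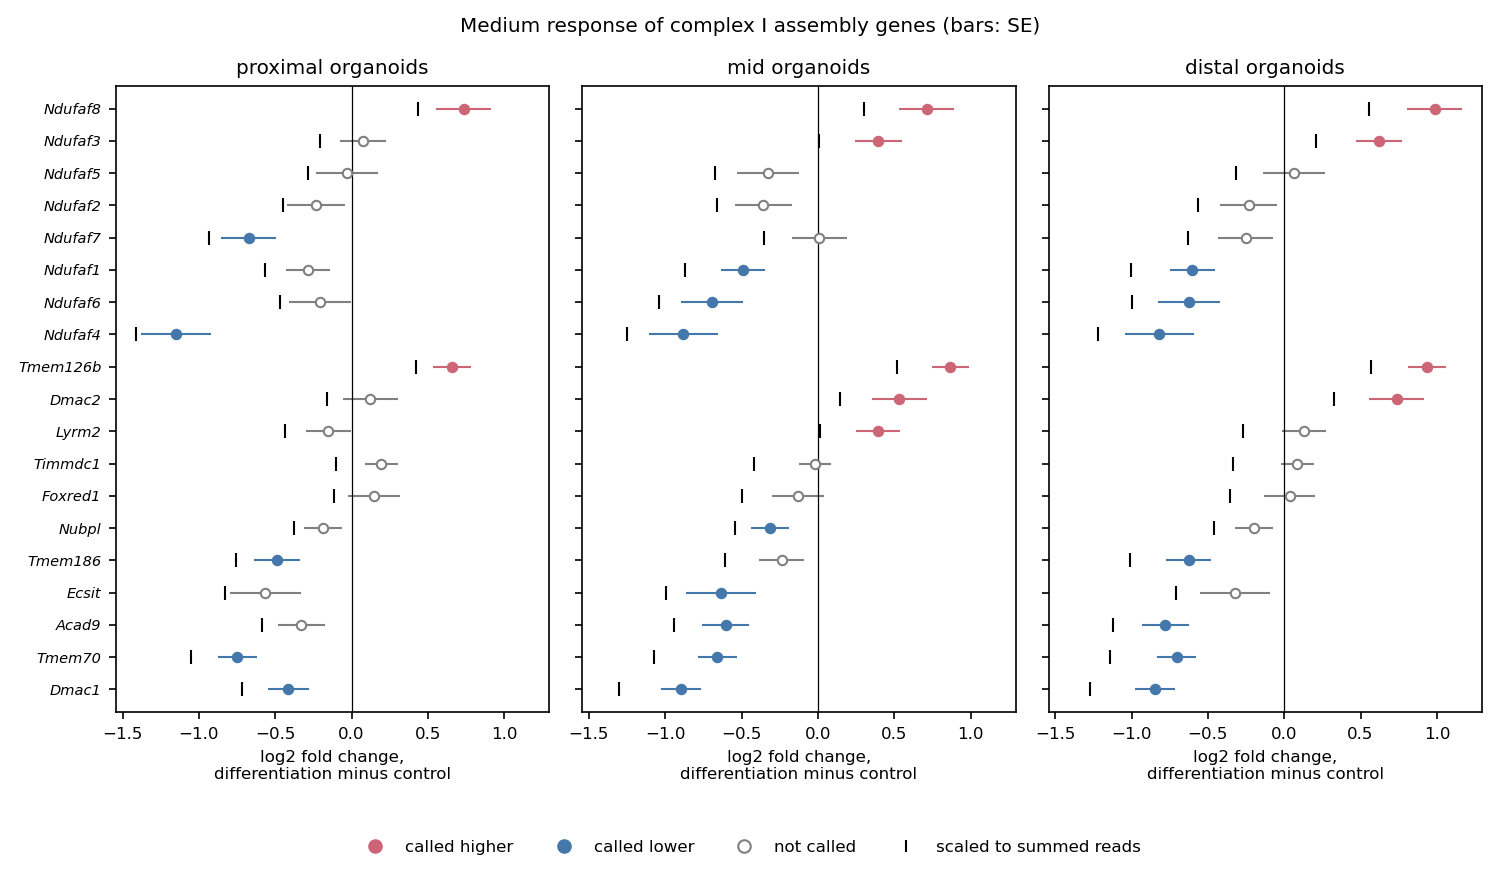
Difference between differentiation and control medium in log2(FPKM + 1) (horizontal axis) for the 8 Ndufaf factors (upper rows) and 11 other assembly genes (lower rows) in the 3 regions; circles with SE bars are coloured by call and the tick is the value scaled to summed reads. Ndufaf8 and Tmem126b lie right of 0 and Ndufaf4, Tmem70 and Dmac1 left of 0 in each region.

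The 3 genes kept apart, and the subunit that failed the filter, were as follows. Ndufa4 (chr6:11900291-11907496, minus strand), once counted to complex I and now to complex IV, was 42.7, 34.6 and 35.7 FPKM in proximal control and 63.4, 33.99 and 41.1 in proximal differentiation libraries, 60.3, 69.03 and 56.3 and 59.7, 50.8 and 42.4 in mid, and 50.7, 68.9 and 51.5 and 53.8, 43.03 and 46.1 in distal libraries. Its medium differences of 0.24 ± 0.20, -0.28 ± 0.20 and -0.25 ± 0.20 were not called, and on summed reads it was called lower in mid (-0.71) and distal organoids (-0.70). Its paralog Ndufa4l2, known as a hypoxia-induced gene, was listed at 0 in all 6 proximal libraries. It was at 1.299, 0.513 and 0.187 FPKM in mid control and 0.0599, 0 and 0.166 in mid differentiation libraries, and 0.675, 0.742 and 0.868 and 0.564, 0.386 and 0 in distal libraries, and it was not tested. The retrocopy Ndufb11b was listed at 0 in all 18 libraries. Ndufb2, a membrane-arm subunit, failed the filter with 0.468 to 1.13 FPKM. The table gives it a length of 5628 bases and places it over part of Gm42420 and, on the opposite strand, Braf, and FPKM is divided by that length.

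Between regions in control medium the counts of called members depended on the fit. Ndufb1, a small membrane-arm subunit, was the only one of 36 nuclear subunits called between distal and proximal organoids (0.57 ± 0.17 (adjusted p = 0.0474)), against 5.57% of all tested genes called higher and 4.98% lower. The call was lost on summed reads (0.58), where 5.9% of all genes were called higher, and without proximal control replicate 1, 2 or 3 or distal control replicate 1 or 2 (adjusted p of 0.0802 to 0.181). With a replicate block the count was 3, against 805 of all 12896 tested genes called higher. With only the compared groups fitted the count was 2, against 445 of all tested genes. Ndufb1 stood at 6.58, 7.06 and 5.96 FPKM in proximal control, 9.37, 11.7 and 11.4 in mid control and 10.1, 11.6 and 8.93 in distal control libraries, with the proximal ones lowest. Between mid and proximal organoids 4 of 36 were called higher, Ndufa5 (0.77 ± 0.23), Ndufb1 (0.65 ± 0.17), Ndufb8 (0.53 ± 0.15) and Ndufb6 (0.47 ± 0.14), against 7.99% of all tested genes higher and 5.28% lower, and Ndufa4 as well (0.70 ± 0.20). On summed reads 5 of 36 were called higher, against 7.65%. With a replicate block 14 of 36 were called higher, against 9.11% of all genes, and with only the compared groups fitted 14 of 36, against 11%. The count of 4 became 0 without proximal control replicate 3 or mid control replicate 2 and 1 without proximal control replicate 2 or mid control replicate 1, and Ndufa4 was not called without proximal control replicate 2 or 3 or mid control replicate 1 or 2. The median difference over the 36 was 0.28 for distal and 0.39 for mid against proximal organoids, beside 0.02 over all tested genes in both. None of the 7 mt-Nd genes was called in control medium by limma, with 1 at an unadjusted p under 0.05 between distal and proximal and 0 between mid and proximal organoids. Of all 12896 tested genes 3027 and 3482 reached that unadjusted p, so both mt-Nd counts lie below the share of all genes. The cycling markers moved with these comparisons, at 32.001 to 82.2 FPKM in proximal, 119 to 155 in mid and 81.4 to 140 in distal control libraries, and their part was not tested.

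In differentiation medium the regions stood further apart. Aqp8 reached at most 0.606 FPKM in proximal and at least 2107 in mid and 2595 in distal differentiation libraries. Car4 and Slc26a3 were also lowest in the proximal ones and Cdx2 highest, whereas Krt20 and Car1 overlapped. The part of these markers in the region comparisons and in the interaction below was not tested. Distal exceeded proximal organoids for 19 of 36 nuclear subunits, against 15.6% of all tested genes called higher, and for 6 of 7 mt-Nd genes. Mid exceeded proximal organoids for 12 of 36, against 15.6%, and for 5 of 7 mt-Nd genes. No subunit of either class was called lower. Medians were 0.48 and 0.37 for the nuclear subunits and 1.44 and 1.36 for the mt-Nd genes. On summed reads the mt-Nd counts were 5 and 5 and the nuclear counts 12 and 8, beside 11.1% of all genes higher and 18.2% and 17.9% lower, where FPKM gave 14.3% and 13.7% lower. The distal count was 11 without distal differentiation replicate 1, 12 without distal differentiation replicate 2 and 31 without distal differentiation replicate 3, and the mid count 6 without mid differentiation replicate 1. Without proximal differentiation replicate 1 the nuclear counts were 18 and 13 and the mt-Nd counts 6 and 6, mt-Nd4l being the one gained in mid organoids. With a replicate block the mid nuclear count was 20, against 16.6% of all genes. Fitted on the compared groups alone, 4 nuclear subunits and 3 mt-Nd genes were called higher in distal than in proximal organoids. Of all 12896 tested genes 1041 were called higher in that fit, and the nuclear count of 4 lies near that share.

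Among the complex I genes, the mt-Nd genes held the largest of these differences. The 6 other mitochondrially encoded messengers shared the direction, with 6 of 6 called higher in both comparisons, against 15.6% of all tested genes. Their medians were 1.78 for distal and 1.89 for mid against proximal organoids. Some of the mt-Co1, mt-Co2 and mt-Cytb calls were lost in alternative fits. Between distal and proximal organoids mt-Nd4 differed by 1.48 ± 0.19 (adjusted p = 2.24e-05), mt-Nd5 by 1.44 ± 0.21 (adjusted p = 8.28e-05) and mt-Nd6 by 1.55 ± 0.24 (adjusted p = 1.39e-04). The calls of mt-Nd1 (0.85 ± 0.17), mt-Nd2 (0.90 ± 0.15) and mt-Nd4l (1.56 ± 0.50) were smaller or less precise, and that of mt-Nd4l was lost without proximal differentiation replicate 2 or 3 or distal differentiation replicate 2 (adjusted p of 0.0952 to 0.161). Between mid and proximal organoids the called genes were mt-Nd4 (1.52 ± 0.19), mt-Nd6 (1.501 ± 0.24), mt-Nd5 (1.38 ± 0.21), mt-Nd2 (0.93 ± 0.15) and mt-Nd1 (0.87 ± 0.17). With no filter on low genes mt-Nd1 was called in neither comparison (adjusted p of 0.302 in mid and 0.3103 in distal). Both comparisons share the proximal libraries. Among nuclear subunits Ndufa1, at 73.1, 80.01 and 74.8 FPKM in proximal differentiation libraries, 206, 143 and 141 in their mid and 201, 196 and 121 in their distal counterparts, was higher in distal (1.14 ± 0.23 (adjusted p = 0.00146)) and in mid organoids (1.07 ± 0.23 (adjusted p = 0.00238)). Ndufab1, not called for medium, was called between distal and proximal (0.47 ± 0.15) and between mid and proximal organoids (0.44 ± 0.15), calls that were lost without distal differentiation replicate 1 or 2, mid differentiation replicate 1 or 2, or proximal differentiation replicate 2 or 3 (adjusted p of 0.0949 to 0.162). Of the 8 assembly factors, Ndufaf3 and Ndufaf4 were called higher in distal and Ndufaf3 and Ndufaf7 in mid organoids. The Ndufaf4 call was lost without proximal differentiation replicate 2 or 3 or distal differentiation replicate 2 or 3 (adjusted p of 0.06197 to 0.182). The mid Ndufaf3 call was lost without any 1 of the 6 libraries compared (adjusted p of 0.0528 to 0.152), and the Ndufaf7 call without proximal differentiation replicate 2 or mid differentiation replicate 1 or 2 (adjusted p of 0.07704 to 0.156).

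**Figure D5:**
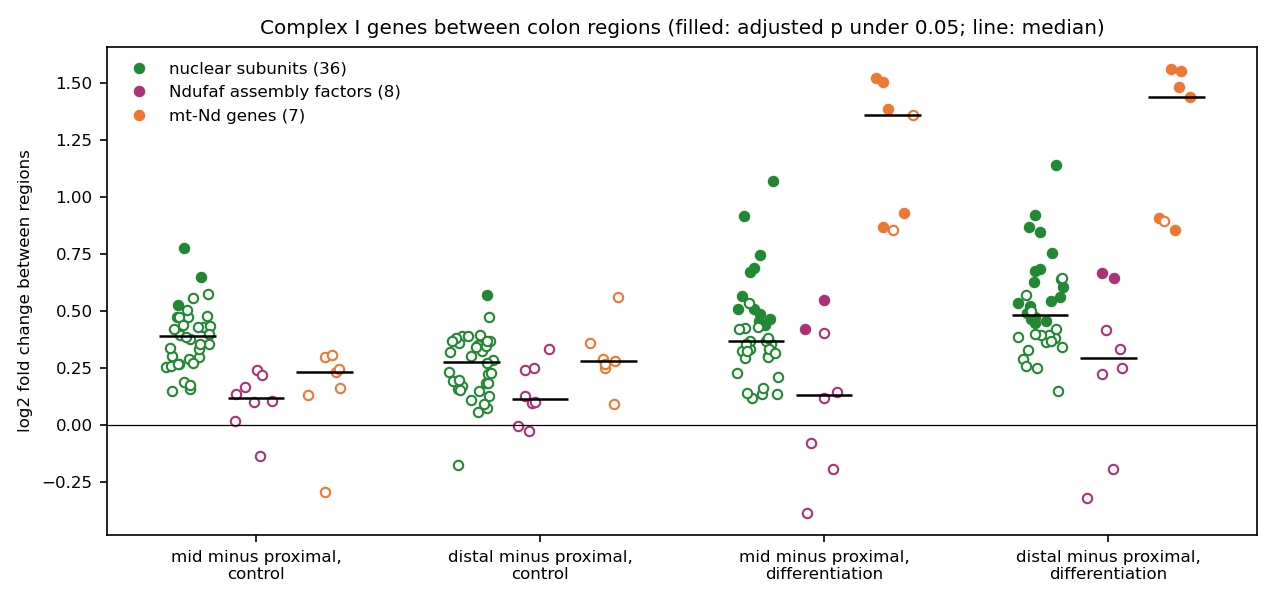
Difference between regions in log2(FPKM + 1) (vertical axis) for the 36 nuclear subunits, 8 Ndufaf factors and 7 mt-Nd genes in 4 comparisons along the horizontal axis; each point is a gene, filled where called, and the line is the class median. In differentiation medium the mt-Nd medians, 1.44 for distal and 1.36 for mid against proximal, lie above those of the nuclear subunits, 0.48 and 0.37.

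Whether the medium response itself differed between distal and proximal organoids was tested with an interaction term. Of the 7 mt-Nd genes 3 were called with a larger rise in distal organoids, against 4.16% of all tested genes with a larger and 4.09% with a smaller response. These were mt-Nd4 (1.19 ± 0.26 (adjusted p = 0.0112)), mt-Nd5 (1.16 ± 0.29 (adjusted p = 0.02402)) and mt-Nd6 (1.28 ± 0.33 (adjusted p = 0.0275)), the last uncertain for the strand reason above. On summed reads the same 3 were called (1.06, 1.02 and 1.15), against 2.91%. The call of mt-Nd4 held in each fit without 1 library. That of mt-Nd5 was lost without proximal control replicate 2 or 3, proximal differentiation replicate 2 or distal differentiation replicate 2 (adjusted p of 0.0523 to 0.0687), and that of mt-Nd6 was lost on leaving out any of those 4 libraries, proximal differentiation replicate 1, distal control replicate 2 or 3, or distal differentiation replicate 1 (adjusted p of 0.0522 to 0.0743). All 3 calls were lost when no filter on low genes was applied (adjusted p of 0.0882 to 0.131) and when only the 4 groups compared were fitted (0.0583 to 0.0954). The interaction of mt-Nd1 was 0.60 ± 0.25 (adjusted p = 0.152), that of mt-Nd2 0.55 ± 0.21 (adjusted p = 0.124) and that of mt-Nd3 0.80 ± 0.48 (adjusted p = 0.349). Of the 6 other mitochondrially encoded messengers 1, mt-Cytb, was called higher, and their median interaction was 1.32. The mt-Cytb call was lost with no filter and with only the groups compared. None of the 36 nuclear subunits and none of the 8 assembly factors was called by limma. At an unadjusted p under 0.05 in limma there were 2 of the 36 and 1 of the 8. Of all 12896 tested genes 2962 reached that unadjusted p, so both counts lie below the share of all genes. Without distal differentiation replicate 3, 2 of the 36 were called higher, where 627 of 12844 tested genes were.

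Genes around complex I were read from lists. The 6 other mitochondrially encoded messengers were called higher in 1 of 6 cases in proximal (mt-Co1, 0.82 ± 0.27) and 6 of 6 in mid and in distal organoids, with mt-Atp6 at 3.24 ± 0.49 in mid (adjusted p = 4.58e-05) and mt-Co2 at 2.41 ± 0.51 in distal organoids (adjusted p = 7.88e-04). Of all tested genes 27.6%, 31.5% and 31.6% were called higher in the 3 regions. On summed reads the counts were 0, 6 and 6 of 6, against 18.5%, 19.2% and 18.6% of all genes. The proximal counts lie near or below these shares. Without proximal differentiation replicate 1 the proximal count was 1. For mitochondrial transcription and RNA 24 names were listed and 22 genes tested. Slirp was not tested, and Fastkd4 is another name of Tbrg4, which was listed and tested. Of the 22, 2 were called higher in every region, below the shares of all genes called higher just given. In proximal organoids 12 were called lower and in mid and distal organoids 14 each, against 26.2%, 32.0% and 31.3% of all tested genes called lower. On summed reads 18, 16 and 16 were called lower, against 40.1%, 46.6% and 47.3% of all genes, and without proximal differentiation replicate 1 the proximal count was 15. Twnk, the mitochondrial DNA helicase, was called lower, with differences of -1.65 ± 0.18, -1.05 ± 0.18 and -1.203 ± 0.18, and Polrmt, the mitochondrial RNA polymerase, was called lower with -0.84 ± 0.22, -0.79 ± 0.22 and -0.87 ± 0.22. The 2 called higher in each region were Polg2, an accessory subunit of the mitochondrial DNA polymerase (1.02 ± 0.17, 1.09 ± 0.17 and 1.11 ± 0.17), and Mterf2, a mitochondrial transcription termination family member (0.87 ± 0.17, 1.39 ± 0.17 and 1.43 ± 0.17). The call of mt-Co1 in proximal organoids was lost on summed reads and without proximal control replicate 2 or proximal differentiation replicate 2 or 3 (adjusted p of 0.0585 to 0.07404). It was also lost with no filter and with only the groups compared.

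Among 9 tested regulators of mitochondrial genes (10 listed; Esrrg was not tested), proximal organoids had 3 called higher and 1 lower, mid organoids 3 and 2, and distal organoids 3 and 1. The counts called higher lie near the background of 27.6%, 31.5% and 31.6% of all tested genes. Those called lower lie below the 26.2%, 32.0% and 31.3% of all tested genes. On summed reads the counts were 2 higher and 5 lower, 3 and 6, and 3 and 6. That scaling called 18.5%, 19.2% and 18.6% of all genes higher and 40.1%, 46.6% and 47.3% lower. Without proximal differentiation replicate 1 the proximal counts were 3 and 1. The coactivator Ppargc1a rose in each region (1.31 ± 0.29, 1.38 ± 0.29 and 1.58 ± 0.29), as did its relative Ppargc1b (0.75 ± 0.27, 1.81 ± 0.27 and 2.27 ± 0.27) and Esrra, which encodes estrogen-related receptor alpha (0.71 ± 0.12, 1.303 ± 0.12 and 1.29 ± 0.12). The third coactivator of the family, Pprc1, fell in each region (-2.22 ± 0.33, -2.21 ± 0.33 and -2.34 ± 0.33). The interaction was called for Ppargc1b (1.52 ± 0.39, adjusted p = 0.0257) and Esrra (0.58 ± 0.17, adjusted p = 0.0477), the latter not on summed reads, and not for Ppargc1a (0.27 ± 0.42). The Esrra interaction was lost in 11 of 12 fits without 1 library (adjusted p of 0.0537 to 0.115). That of Ppargc1b was lost without proximal differentiation replicate 2 or 3, distal control replicate 3 or distal differentiation replicate 1 or 2 (adjusted p of 0.05205 to 0.0584). Both interactions were also lost with a pseudocount of 0.1, with no filter and with only the groups compared. The proximal medium call of Ppargc1b was lost on summed reads and without proximal control replicate 2 or 3 or proximal differentiation replicate 1 or 3 (adjusted p of 0.0542 to 0.1401). It was also lost with no filter and with only the groups compared. Nrf1, which encodes the factor whose motif was searched above, was called lower in mid organoids (-0.50 ± 0.12) and not in proximal (-0.12 ± 0.12) or distal ones (-0.22 ± 0.12).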

How the data were processed

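The authors deposited FPKM per gene and library, with a gene length in bases and 6 columns of group means, per the file headers; the means were left untested, and 0 columns of values lacked a sample. The submitters' processing notes name HISAT2 2.0.5, featureCounts 1.5.0-p3 and mm39. The annotation release, the library scaling and the strand setting of the counting are not given in the sources used here. FPKM times gene length fell on whole multiples of a step in each library within 0.001 of a read for 100% of values, which gave the reads. The 12896 genes that reached 1 FPKM in 3 or more libraries were tested on log2(FPKM + 1), which understates changes of low genes, with limma 3.58.1 in R 4.3.3: means of the 6 groups over 18 libraries, moderated tests with a trend, two-sided, 12 residual degrees of freedom, Benjamini-Hochberg adjustment over all tested genes, threshold 0.05. The script was tested on simulated data. Python 3.11.15, pandas 2.3.3, numpy 2.4.6 and matplotlib 3.10.9 were used. Alternatives were a pseudocount of 0.1, no filter, an FPKM filter of 5, scaling to summed reads, median-ratio factors, only the groups compared, a replicate block and leaving out each library.

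Named with values were all mt-Nd genes, nuclear core subunits (1 is not reported here), Ndufab1, Ndufa4 and Ndufa4l2, the 4 largest and 3 smallest nuclear differences per medium comparison, the 3 largest called differences per region comparison and interaction, Ndufaf genes called in all 3 medium comparisons, and members that failed the filter; others named in the text were added after their values were seen. The members and the gene lists were chosen with earlier results of these data known. Gene positions are those of the deposited table on mm39, and promoter sequences and positions are those of RefSeq on GRCm38.p6. Gene overlaps were read from the table, where 15 nuclear subunits, 2 assembly factors and 4 mt-Nd genes overlap another coding gene. Among the nuclear subunits Ndufb9, Ndufb8, Ndufa13 and Ndufb2 overlap a coding gene on the same strand, and the values of these are uncertain for that reason.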

Additional observations from a re-analysis of the deposited data

Results flagged for a closer look

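The medium response differed between distal and proximal organoids for 3 of the 7 mt-Nd genes, by the interaction term in limma with Benjamini-Hochberg adjustment over all tested genes. All 3 were called with a larger rise in distal organoids. None of the 3 calls held with no filter on low genes or with only the compared groups fitted, and only that of mt-Nd4 held in each fit without 1 library. The differences between the responses were 1.19 ± 0.26 for mt-Nd4, 1.16 ± 0.29 for mt-Nd5 and 1.28 ± 0.33 for mt-Nd6 on the log2 scale (SE). Distal responses of these genes were 1.51 ± 0.19, 1.52 ± 0.21 and 1.63 ± 0.24, and proximal ones 0.31 ± 0.19, 0.36 ± 0.21 and 0.35 ± 0.24. The reads of mt-Nd6 may include antisense reads of mt-Nd5. The same test called none of the 36 nuclear subunits and none of the 8 assembly factors. Of the 6 other mitochondrially encoded messengers it called 1 higher, mt-Cytb, against 4.16% of all tested genes. The median interaction over those 6 was 1.32, so a larger distal rise was not particular to the complex I genes.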

How the results depend on the processing

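On summed reads 3 calls changed sign and were lost, those of Ndufa9 in mid organoids (0.34 ± 0.14 to -0.08) and of Ndufa2 (0.44 ± 0.18 to -0.01) and Ndufb6 (0.40 ± 0.14 to -0.05) in distal organoids, and the median over the 7 mt-Nd genes in proximal organoids turned from 0.31 to -0.0073. No other called subunit or assembly factor changed sign in an alternative run. Scaling to summed reads moved the counts of nuclear subunits called higher in differentiation medium to 6 (proximal), 8 (mid) and 14 (distal), the mid count called lower to 1, the proximal mt-Nd counts to 0 higher and 1 lower, and the distal against proximal nuclear counts to 0 in control and 12 in differentiation medium. With no filter on low genes, the mt-Nd count was 0 in the proximal medium comparison and 0 in the interaction, and the nuclear counts in control medium were 0 (distal against proximal) and 2 (mid against proximal). With only the groups compared, nuclear counts were 2 (distal against proximal, control), 14 (mid against proximal, control) and 4 (distal against proximal, differentiation), and mt-Nd counts 3 (distal against proximal, differentiation) and 0 (interaction). The cause was not tested. A pseudocount of 0.1, an FPKM filter of 5 and median-ratio factors kept each of the 32 class counts within 1.5 times.

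With a replicate block, nuclear counts were 3 (distal against proximal, control), 14 (mid against proximal, control) and 20 (mid against proximal, differentiation), and the other counts of nuclear and mt-Nd subunits stayed within 1.5 times. Over 45 same-numbered pairs of libraries, deviations from group means correlated at -0.387 to 0.542, with 23 pairs over 0.1, and different-numbered pairs at -0.468 to 0.399. Since not every same-numbered pair exceeded 0.1 and no label ties the numbers to an animal or batch, the numbers were not taken as pairing the samples. Control libraries numbered 3 correlated at 0.341 (proximal and mid), 0.330 (proximal and distal) and 0.542 (mid and distal). Those numbered 2 correlated at -0.012, -0.231 and 0.149. A rule that asks for all 45 pairs cannot decide whether some same-numbered libraries shared an effect.

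Leaving out each library, nuclear subunits called higher ranged from 11 to 21 in proximal, 13 to 22 in mid and 23 to 31 in distal medium comparisons. Between regions they ranged from 0 to 1 (distal against proximal) and 0 to 6 (mid against proximal) in control medium, and 11 to 31 and 6 to 14 in differentiation medium, and from 0 to 2 in the interaction. The mt-Nd counts ranged from 5 to 6 in mid, 5 to 6 in distal, 5 to 7 and 5 to 6 between regions in differentiation medium, and 1 to 3 in the interaction. Where an arm was left with 2 libraries, its spread was taken from all groups. Few reads limit Ndufa4l2 (0 to 30 per library), Ndufb2 (33 to 107) and mt-Nd4l (31 or more), and Ndufb11b had none.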
